A study of Mus musculus with 22 samples.

Results

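Gene expression in the hypothalamus on day 14 after inoculation with Lewis lung carcinoma was set against that of control mice killed on the same day. The comparison takes 11 of the 22 arrays of the series, those titled as tumour-bearing day 14 (7 mice) and as control day 14 (4 mice), 1 array per mouse, and it is the only one of the series in which day and tumour are not mixed. Each of 18820 genes was represented by the probe set that names it alone and has the highest mean over all 22 arrays. All mice were male C57BL/6, housed singly on an AIN93M-type diet given freely. Lewis lung carcinoma, a transplantable mouse tumour, was introduced as a cell suspension into the muscle of a hind leg under anaesthesia. The labels do not say whether controls received an injection of any kind. Every mouse, control or tumour-bearing, was under ketamine and xylazine when killed. Other tumour-bearing mice of the series were killed on day 10 (5 mice) and day 17 (6 mice). The series title concerns differences in food intake of cachectic mice and serotonin signalling in the hypothalamus.

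Cachexia is the loss of body mass that accompanies many tumours. The hypothalamus regulates feeding through neurons of the arcuate nucleus, some of which release neuropeptide Y and agouti-related peptide and promote eating, while others release products of Pomc and Cartpt and restrain it. It also receives signals of systemic illness: cytokines act on receptors of brain endothelial cells, which form the blood-brain barrier, and the adrenal glucocorticoids that are released in illness act on a nuclear receptor found in most cells. Interferons act through other receptors and switch on a common set of antiviral genes.

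Values are log2 RMA values, so a difference of 1 is a 2-fold difference. Differences are tumour minus control, and their standard errors (SE) come from a limma model fitted to all 22 arrays, and a gene was called at a Benjamini-Hochberg adjusted p below 0.05 over all genes. In this comparison 41 genes were called (0.218% of those tested), 37 higher (0.197%) and 4 lower (0.0213%). At an unadjusted p below 0.05 there were 806 genes on the higher side (4.28%) and 1164 on the lower side (6.18%). Over all genes, 48% had a higher and 52% a lower mean in tumour-bearing mice. All 7 tumour-bearing mice lay above all 4 controls in 146 genes (0.776%) and below them in 200 (1.06%). The count of 41 depended on the arrays that entered the fit. Dropping control replicate 1, 2 or 3 left 4, 2 or 2 calls, dropping control replicate 4 gave 109, and dropping tumour replicate 5 or 6 gave 25 or 115. When only the 11 mice compared entered the fit, 0 genes passed in limma and 1931 had an unadjusted p below 0.05. All of the 41 were among them, each with its sign unchanged. They had been chosen for small p with these same mice, so this is no separate support.

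Array medians ran from 5.27 to 5.34 and correlations between arrays from 0.980 to 0.995. The dissection was checked against markers. Hypothalamus markers were present, with Hcrt, the orexin gene, between 10.31 and 10.77 in controls, and 16 of 24 had a higher mean in tumour-bearing mice, a count that was 7 with the thalamus markers below as a covariate and 12 without tumour replicate 6. Thalamus markers, which belong to the tissue above the hypothalamus, had a lower mean in 16 of 17 genes (median difference -0.38). The mean of that list was 7.05, 6.48, 7.45 and 6.40 in control replicates 1 to 4 and ran from 6.34 over a median of 6.44 to 7.10 in tumour-bearing mice, with replicate 2 the highest. Without the 4 arrays of the series that were highest in these markers, among them control replicates 1 and 3 and tumour replicate 2, 0 genes were called by limma and 899 had an unadjusted p below 0.05. With the mean of these markers as a covariate, 13 were called. The 41 genes all kept their sign and an unadjusted p below 0.05, which their choice from these same arrays made likely. Their median absolute difference was 0.651 against 0.652. Of 12 meningeal fibroblast markers 10 were higher in mean (median difference 0.31), with list means of 5.43 to 6.10 in the controls. In tumour-bearing mice the list means ran from 5.14 to 6.77, with replicates 1 and 5 highest (6.77 and 6.73) and replicates 2 and 7 below every control. With the mean of the meningeal markers as a covariate, 40 genes were called. The part of such tissue differences in single genes was not tested.

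The mice of each group were unequal, and the same mice stood apart for most called genes. Over the 41 called genes, each mouse's signed difference from the control mean had a median of -0.08, -0.05, -0.10 and 0.25 in control replicates 1 to 4. In the tumour-bearing mice the medians were 0.80, 0.80, 0.81, 0.51, 0.78, 0.36 and 0.72 in replicates 1 to 7. Control replicate 4 was thus the control nearest to the tumour-bearing mice, and tumour replicate 6 the tumour-bearing mouse nearest to the controls. Control replicate 4 was the highest control in 35 of the 37 genes that rose. Tumour replicate 6 was the lowest tumour-bearing mouse in 25 of them. Among the called genes, 24 had no overlap between groups, 21 of the rises and 3 of the falls, which describes the genes that were called and supports nothing further. The median SD of a called gene was 0.21 in controls and 0.24 in tumour-bearing mice, against 0.10 and 0.13 over all genes.

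**Figure D1:**
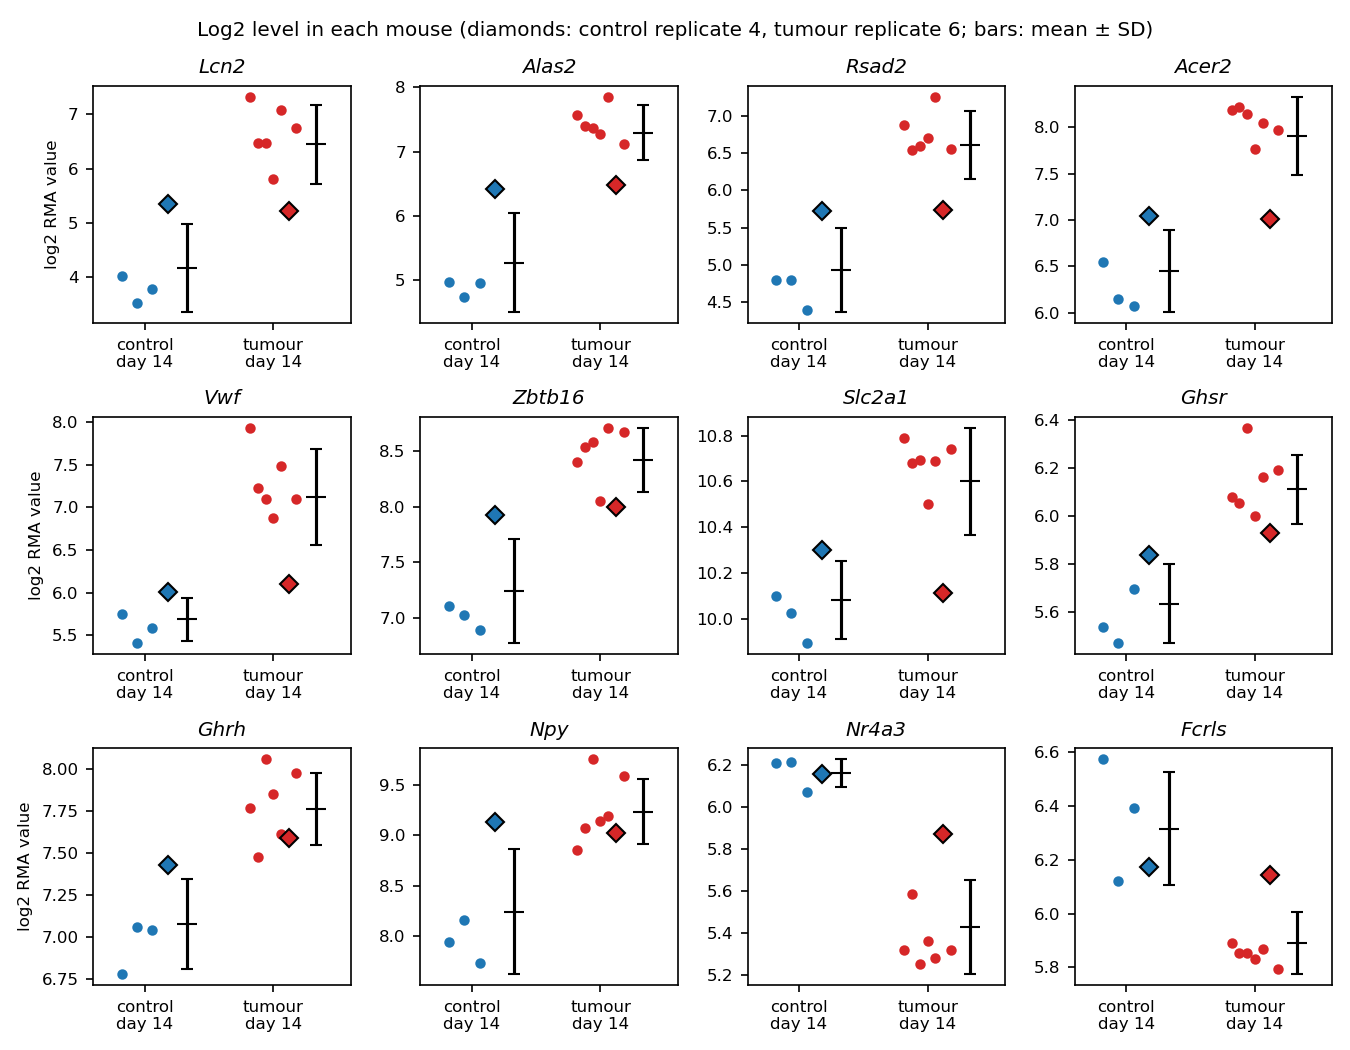
Log2 RMA value (y axis) of 12 genes in each of the 4 control and 7 tumour-bearing mice of day 14 (x axis), with the mean and SD of each group as bars. Diamonds mark control replicate 4 and tumour replicate 6, which meet or overlap in Lcn2, Alas2, Rsad2 and Acer2, while Nr4a3 separates the groups in the opposite direction.

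Genes that glucocorticoids induce were the list with the most calls. Of 41 measured genes, 8 rose, 0 fell and 33 were not called, where 0.197% of all genes rose. The median difference was 0.24 against 0.00 over all genes. Zbtb16, a zinc-finger transcription factor that glucocorticoids and progestins induce, stood at 7.11, 7.02, 6.89 and 7.93 in the controls. In tumour-bearing mice it ran from 7.99 over a median of 8.54 to 8.71. The groups did not overlap, but control replicate 4 lay just under the lowest tumour-bearing mouse, and Zbtb16 rose by 1.18 ± 0.19 (limma adjusted p = 0.00738). Fkbp5, a co-chaperone that restrains the glucocorticoid receptor, measured 6.27, 6.20, 6.05 and 6.62 in controls and from 6.67 over 6.86 to 7.35 in tumour-bearing mice. It rose by 0.64 ± 0.12 with no overlap.

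Map3k6, a stress-activated kinase, stood between 4.54 and 4.78 in controls and between 4.99 and 5.61 in tumour-bearing mice, and rose by 0.65 ± 0.10 (limma adjusted p = 0.0047). Hif3a, a member of the hypoxia-inducible factor family, rose by 0.91 ± 0.16. Plin4, which coats lipid droplets, rose by 1.07 ± 0.21, although control replicate 4 stood at 5.39 and the other 3 controls between 4.39 and 4.41. Mertk, a receptor tyrosine kinase for the uptake of dying cells, rose by 0.57 ± 0.11. The remaining called members, Lcn2 and Il1r1, belong also to the inflammation list. Among members that were not called, the differences were 0.31 ± 0.07 for the metallothionein Mt1, 0.24 ± 0.06 for the transcription factor Klf15 and 0.36 ± 0.10 for Tsc22d3, the leucine-zipper protein that glucocorticoids induce. In Mt1 and Klf15 all 7 tumour-bearing mice lay above every control. Dropping control replicate 1, 2 or 3 left 1, 0 or 0 called members.

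Promoters were searched for the sites of the factors that the lists are named for, in windows of 250 bases before to 50 after each annotated start (RefSeq, GRCm38.p6), on both strands. The core of the glucocorticoid response element, ACANNNTGT, was in 5 of 32 list members with a promoter in the table (15.6%) and in 7.9% of all 27025 genes with one. A single site of the element, AGAACA, whose last letters overlap that core, was in 18.8% of the list and 21.3% of all genes. The stretches of Lcn2 and Map3k6 are shown because both genes were called and hold the core, in capitals, starting 152 and 179 bases before the start.
Lcn2 (chr2:32387871-32387903, minus strand): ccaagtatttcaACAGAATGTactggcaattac
Map3k6 (chr4:133240627-133240659, plus strand): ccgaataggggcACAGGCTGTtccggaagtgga
A match is only a match of letters in this window. Of the 28 genes called higher with a promoter in the table, 4 held the core. A list's share, here and for the motifs below, describes the choice of its members and not a difference between the groups. Sgk1, the glucocorticoid-induced kinase, also held the core and was not called, with a difference of 0.30 ± 0.11 and replicate 4 of the tumour-bearing mice below every control.

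Inflammation genes were led by Lcn2, the iron-binding acute-phase protein lipocalin 2, which had the largest rise of all genes called. It stood at 4.02, 3.53, 3.78 and 5.35 in the controls and ran from 5.22 over 6.47 to 7.32 in tumour-bearing mice. Tumour replicate 6 lay below control replicate 4, and the other 6 tumour-bearing mice lay above every control. Lcn2 rose by 2.27 ± 0.37 (limma adjusted p = 0.00738). The control values of 3.53 and 3.78 lay under the background measure of 3.87, so that the size is not fully measured on the control side. Il1r1, the receptor through which interleukin 1 signals, measured 5.11, 5.18, 5.17 and 5.46 in controls and from 5.66 over 6.04 to 6.76 in tumour-bearing mice. No tumour-bearing mouse fell within the control range, and Il1r1 rose by 0.91 ± 0.17. Osmr, the receptor subunit for oncostatin M, rose by 0.69 ± 0.12, with 6 of 7 tumour-bearing mice above every control.

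Of 62 measured acute-phase and inflammation genes 3 rose (0.197% of all genes did), 0 fell and 59 were not called. The median difference was 0.11. The count was 0 without control replicate 1, 2 or 3 and 6 without tumour replicate 6. Ligands were higher in mean without being called: 0.78 ± 0.21 for Cxcl9 and 0.55 ± 0.16 for Cxcl10, chemokines that interferon gamma induces, and 0.54 ± 0.13 for Ccl5, which attracts T cells and in which all 7 tumour-bearing mice lay above every control. The inducible cyclooxygenase Ptgs2, which makes prostaglandin precursors, differed by 0.50 ± 0.19 (limma adjusted p = 0.34). Its highest values, 6.03 and 5.73, were in tumour replicates 1 and 5, the mice highest in meningeal fibroblast markers. Lrg1, an acute-phase glycoprotein made by endothelium, was 3.93 to 4.12 in controls and 4.34 to 5.89 in tumour-bearing mice, a difference of 0.82 ± 0.23 that was not called, with tumour replicate 1 highest. Whether those mice's meningeal or vessel tissue had a part in these values was not tested. Of 13 circulating leukocyte markers 11 had a higher mean and 0 were called, and 10 of the 13 lay below the background measure of 3.87.

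Interferon-stimulated genes were higher in mean in 49 of 53 measured members, with a median difference of 0.22. Of the 53, 4 rose (0.197% of all genes did), 0 fell and 49 were not called. In 9 all tumour-bearing mice lay above all controls, as in 0.776% of all genes. Rsad2, the antiviral protein viperin, stood at 4.80, 4.79, 4.40 and 5.73 in controls and ran from 5.74 over 6.59 to 7.25 in tumour-bearing mice. The lowest tumour-bearing mouse, replicate 6, and the highest control, replicate 4, nearly met, and Rsad2 rose by 1.68 ± 0.31 (limma adjusted p = 0.0182). Oasl2, a relative of the oligoadenylate synthetases, rose by 0.61 ± 0.11 from 6.04 to 6.53 in controls to 6.62 to 7.20. Isg20, an exonuclease, and Ube2l6, the conjugating enzyme for ISG15, rose by 1.38 ± 0.23 and 1.17 ± 0.23, and both are also on the red cell list. The count of called members was 0 without control replicate 1, 2 or 3, 8 without control replicate 4 and 7 without tumour replicate 6.

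Among members not called were Ifitm3, which blocks virus entry (0.72 ± 0.17), Ifit1 (0.65 ± 0.18) and Ifit3 (0.56 ± 0.15), which bind viral RNA or partner such proteins, and the guanylate-binding protein Gbp2 (0.60 ± 0.17). In Ifit1 and Gbp2 all 7 tumour-bearing mice lay above every control. The transcription factor Irf7 differed by 0.40 ± 0.11, also with no overlap. Class I antigen presentation genes had a median difference of 0.12, with 0 of 17 called. At an unadjusted p below 0.05, 6 were higher and 1 lower, where 4.28% and 6.18% of all genes were. H2-K1, a classical class I heavy chain, differed by 0.46 ± 0.11, and Tap1, a peptide transporter, by 0.40 ± 0.11 (limma adjusted p = 0.104 and 0.137).

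The interferon-stimulated response element, searched as GAAANNGAA on both strands, was in 21 of the 40 list members with a promoter in the table (52.5%) and in 9.76% of all genes with one. Of the called list members only Rsad2 held a match. Among the 28 genes called higher with a promoter there, list members or not, 4 did. The stretches below are those of Rsad2, which was called, and of 3 members that were not, with each match in capitals. All of these matches lie on the reverse strand.
Rsad2 (chr12:26456551-26456583, minus strand): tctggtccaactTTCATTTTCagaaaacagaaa
Ifit1 (chr19:34640768-34640825, plus strand): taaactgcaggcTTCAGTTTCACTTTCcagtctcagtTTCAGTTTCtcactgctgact
Ifit3 (chr19:34583362-34583447, plus strand): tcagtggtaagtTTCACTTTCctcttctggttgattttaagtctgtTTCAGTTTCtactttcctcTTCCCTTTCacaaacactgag
Gbp2 (chr3:142620593-142620625, plus strand): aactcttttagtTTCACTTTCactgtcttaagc
The first match began 119 bases before the start in Rsad2, 109 in Ifit1, 155 in Ifit3 and 58 in Gbp2, and Ifit1 and Ifit3 each held 3 matches, of which the first pair of Ifit1 overlaps.

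**Figure D2:**
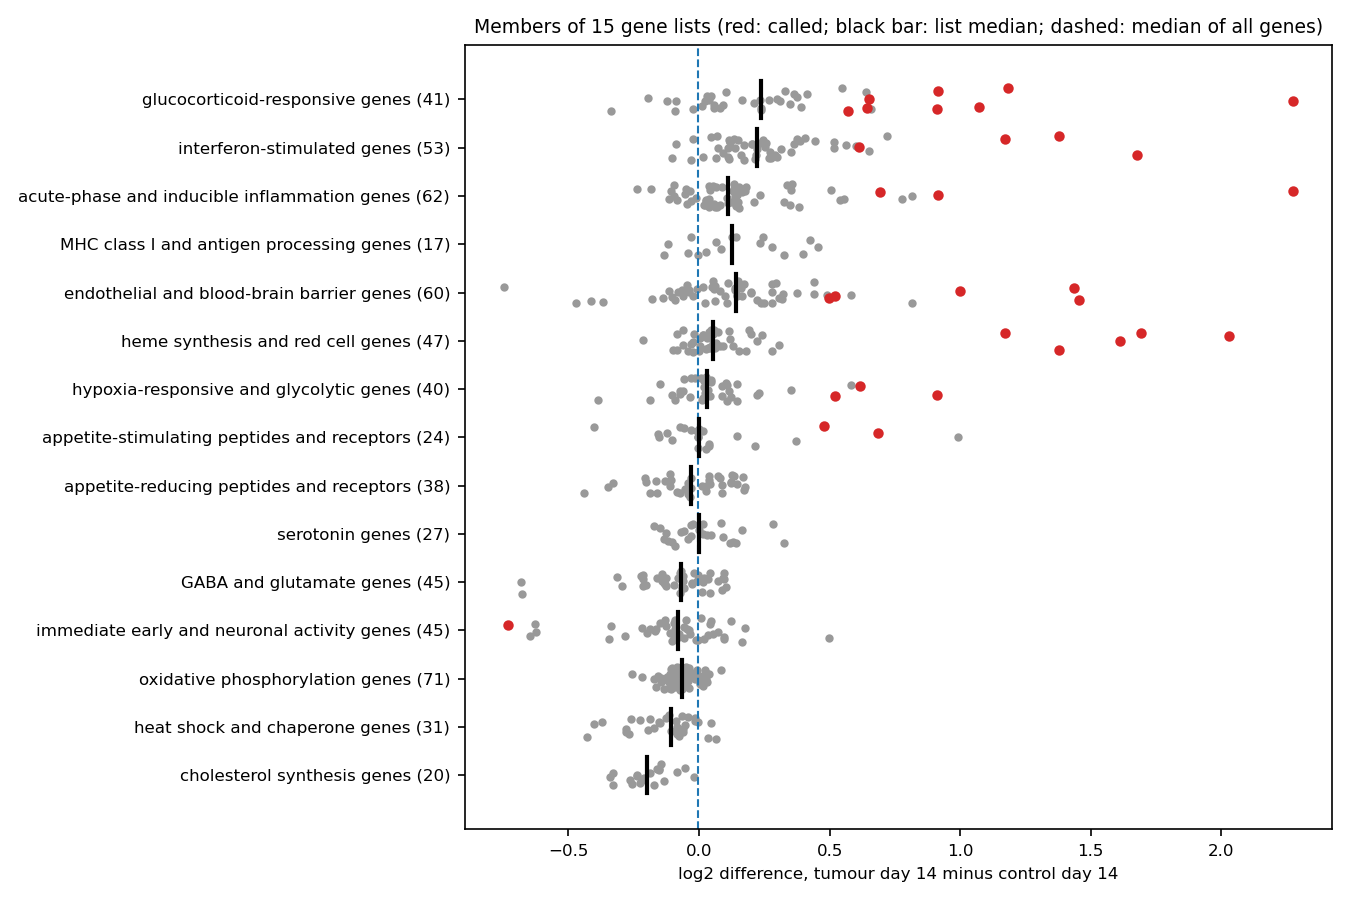
Log2 difference, tumour day 14 minus control day 14 (x axis), of every measured member (points) of 15 gene lists (y axis, number measured in brackets). Red points were called, black bars are list medians, from 0.24 for glucocorticoid-responsive genes to -0.20 for cholesterol synthesis genes, and the dashed line is the median of all genes, 0.00.

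Red cell and heme genes that rose were few and changed by large amounts. Alas2, the erythroid aminolevulinate synthase that starts heme synthesis, stood at 4.97, 4.72, 4.96 and 6.41 in controls and from 6.48 over 7.36 to 7.85 in tumour-bearing mice. The groups did not overlap, although control replicate 4 and tumour replicate 6 nearly met, and Alas2 rose by 2.03 ± 0.33 (limma adjusted p = 0.00738). Slc4a1, the chloride-bicarbonate exchanger known as a major red cell membrane protein, rose by 1.69 ± 0.34 from 4.28, 3.88, 4.26 and 5.29 in controls to between 5.13 and 7.03, with 1 tumour-bearing mouse below the highest control. Tent5c, a poly(A) polymerase abundant in the red cell lineage, rose by 1.61 ± 0.28 with no overlap. With Isg20 and Ube2l6, 5 of 47 measured genes rose (0.197% of all genes did), 0 fell and 42 were not called. The median difference of the list was 0.05, and 12 members lay below background. Tfrc, the transferrin receptor, differed by 0.28 ± 0.07 without being called and with no overlap. The number of called members was 0 without control replicate 1, 2 or 3 and 3 without tumour replicate 5 or 7. Of 13 red cell markers chosen, 4 were measured, and 2 of those lay below background in both groups. The mean of the 4 was 3.79, 3.62, 3.76 and 4.34 in the controls and ran from 4.36 over 4.85 to 5.36 in tumour-bearing mice. Tumour replicate 6 thus again came next to control replicate 4. Array data of whole tissue cannot tell more red cells from more RNA per red cell, nor fewer cells of any type from less RNA per cell.

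Endothelial genes that passed the test were all higher. Of 60 measured genes of endothelium and the blood-brain barrier 5 rose (0.197% of all genes did), 0 fell and 55 were not called. The median difference was 0.14. Acer2, an alkaline ceramidase, stood at 6.55, 6.14, 6.07 and 7.04 in controls and from 7.01 over 8.04 to 8.22 in tumour-bearing mice. Tumour replicate 6 overlapped control replicate 4, the other 6 lay above every control, and Acer2 rose by 1.46 ± 0.20 (limma adjusted p = 0.00292). Its call was kept in all 22 fits that left out 1 array. It was lost, as all calls were, when only the 11 mice compared were fitted and without the 4 arrays highest in thalamus markers. As the mean of its probe sets, the difference was 0.74 and still called. Vwf, the von Willebrand factor that venous endothelium stores, measured 5.75, 5.40, 5.58 and 6.00 in controls and from 6.10 over 7.10 to 7.94 in tumour-bearing mice. Every tumour-bearing mouse lay above every control, and Vwf rose by 1.44 ± 0.25.

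Pglyrp1, a peptidoglycan-binding protein, rose by 1.00 ± 0.15, from 5.39 to 5.95 in controls to 6.07 to 7.01, with no overlap. Transporters of the barrier rose less. Slc2a1, the glucose transporter, stood at 10.10, 10.03, 9.89 and 10.30 in controls and from 10.11 over 10.69 to 10.79 in tumour-bearing mice, and rose by 0.52 ± 0.10, with tumour replicate 6 inside the control range. Mfsd2a, which carries lysophospholipids with omega-3 fatty acids, rose by 0.50 ± 0.10. The leptin receptor Lepr differed by 0.44 ± 0.13 and the transcription factor Sox17 by 0.38 ± 0.10, neither called. At an unadjusted p below 0.05, 18 members were higher and 3 lower, where 4.28% and 6.18% of all genes were. The members lower in mean numbered 17, none of them called, among them Car4, a membrane carbonic anhydrase, at -0.47 ± 0.10 (limma adjusted p = 0.0649), the sialomucin Emcn at -0.42 ± 0.11 and Itm2a at -0.37 ± 0.12. The lowest member, the calcitonin receptor partner Ramp3 at -0.75 ± 0.38, is also a thalamus marker and was not called. Dropping control replicate 1, 2 or 3 left 2, 1 or 1 called members, and dropping tumour replicate 6 gave 11, with 9 up and 2 down. Pericyte and smooth muscle markers had a higher mean in 9 of 10 genes, with list means of 6.21 to 6.29 in controls and 6.18 to 7.04 in tumour-bearing mice, replicate 1 being highest. Their part in the endothelial values was not tested.

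Other genes called higher that are linked to vessels or their surroundings were Igfbp7, a secreted growth factor-binding protein of endothelium (0.63 ± 0.11, from 8.73 to 8.93 in controls to 9.12 to 9.78), and Tgm2, a transglutaminase (0.70 ± 0.13, from 5.46 to 5.55 to 5.72 to 6.76). Neither overlapped. Hypoxia-responsive and glycolytic genes had 3 rises among 40 measured, where 0.197% of all genes rose. These were Hif3a, Slc2a1 and Ankrd37, the last an ankyrin-repeat target of hypoxia-inducible factor (0.61 ± 0.11). The median of that list was 0.03, and the count of called members was 0 without control replicate 1, 2 or 3. At an unadjusted p below 0.05, 8 members were higher and 4 lower, where 4.28% and 6.18% of all genes were. Vegfa and Ldha differed by 0.35 ± 0.09 and 0.23 ± 0.06 and were not called, and Car9, a carbonic anhydrase that hypoxia induces, by -0.39 ± 0.10. The hypoxia response element ACGTG was in 67.6% of the 37 list members with a promoter in the table and in 21.8% of all genes with one. Of the 28 genes called higher with a promoter there, 12 held it. Rbm3, an RNA-binding protein that cold induces, rose by 0.77 ± 0.16, from 9.30, 9.37, 9.41 and 9.80 to between 9.78 and 10.53. Its call was kept in 7 of the 22 fits that left out 1 array and lost in 15. Cirbp, the other main cold-inducible protein, differed by 0.43 ± 0.11 (limma adjusted p = 0.116), with 6 of 7 tumour-bearing mice above every control.

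**Figure D3:**
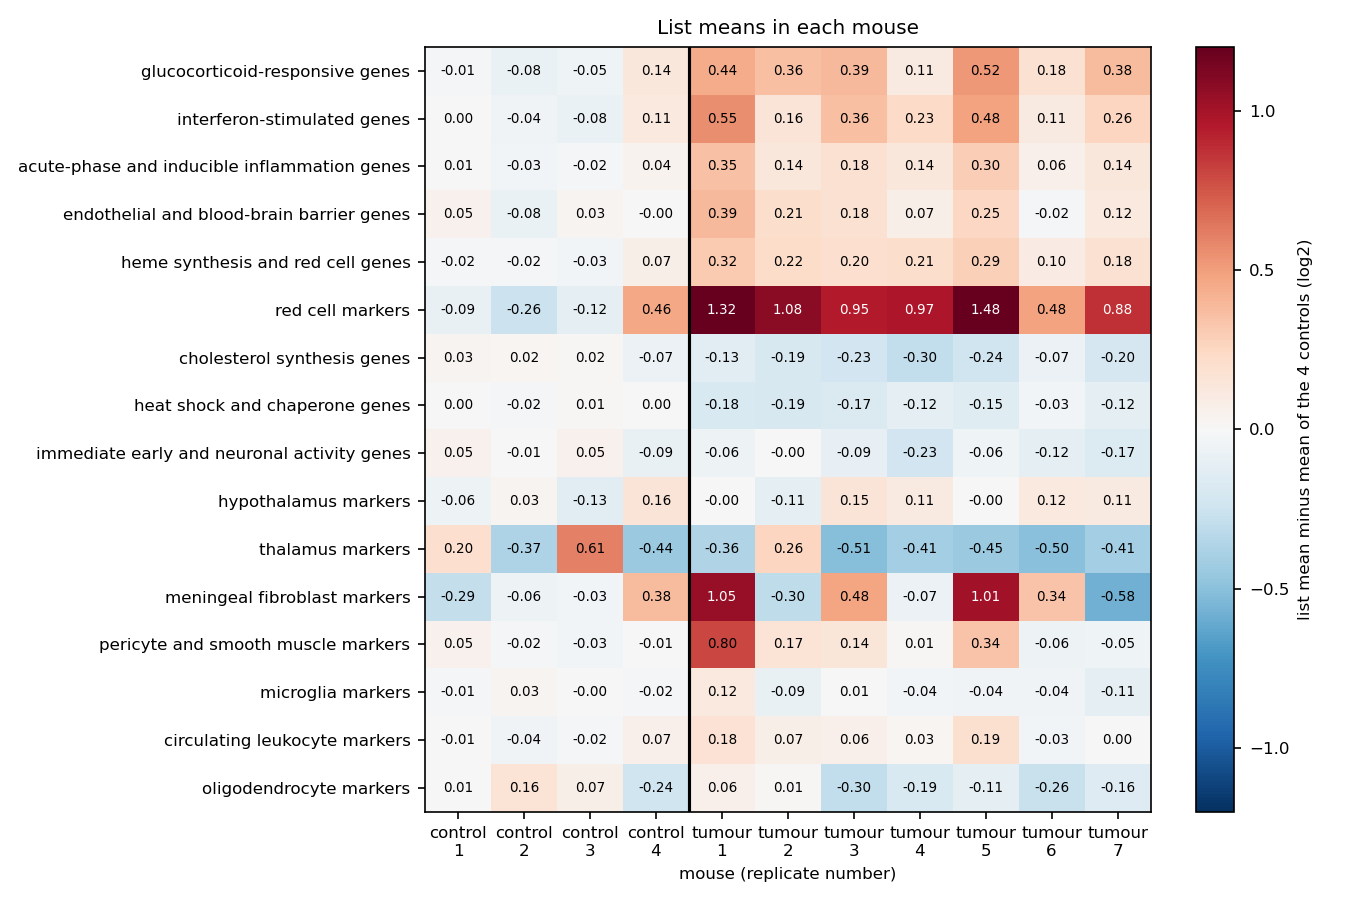
Mean of each list (y axis) in each of the 11 mice (x axis), as the log2 difference from the mean of the 4 controls, by colour and printed value. Control replicate 4 is the control nearest to the tumour-bearing mice in red cell markers (0.46) and tumour replicate 6 the tumour-bearing mouse nearest to the controls there (0.48), while meningeal fibroblast markers are highest in tumour replicates 1 and 5 and thalamus markers in control replicate 3.

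Among feeding genes, Ghsr and Ghrh rose. They were the 2 called of 24 measured appetite-stimulating peptides and receptors, of which 0 fell and 22 were not called (median difference 0.00). Over all genes 0.197% rose. Ghsr, the receptor for the stomach hormone ghrelin, stood at 5.54, 5.47, 5.70 and 5.84 in controls and from 5.93 over 6.08 to 6.37 in tumour-bearing mice. With no overlap, Ghsr rose by 0.48 ± 0.08 (limma adjusted p = 0.00791). Ghrh, growth hormone-releasing hormone of the arcuate nucleus, stood at 6.78, 7.06, 7.04 and 7.43 in controls and from 7.48 over 7.77 to 8.06 in tumour-bearing mice. It rose by 0.69 ± 0.12 with no overlap. Both calls were lost without control replicate 1, 2 or 3 and, as all calls were, without the 4 arrays highest in thalamus markers. Under the alternatives Ghsr ranged from 0.40 to 0.63 and Ghrh from 0.54 to 0.99. Npy, neuropeptide Y, stood at 7.94, 8.16, 7.73 and 9.13 in controls and from 8.86 over 9.14 to 9.76 in tumour-bearing mice. Control replicate 4 lay within the tumour-bearing range, and the difference of 0.99 ± 0.24 was not called (limma adjusted p = 0.0884). The difference in Npy ranged from 0.615 to 1.287 under the alternatives. The part of thalamus tissue in the values of Ghsr, Ghrh and Npy was not tested. Hcrt, orexin of the lateral hypothalamus, differed by -0.40 ± 0.21 (limma adjusted p = 0.509), with replicate 3 of the tumour-bearing mice at 9.33 and the others between 9.97 and 10.42.

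Of 38 appetite-reducing peptides and receptors 0 were called by limma. At an unadjusted p below 0.05, 0 were higher and 3 lower, where 4.28% and 6.18% of all genes were. Their median difference was -0.03, and 0.01 without control replicate 4. Pomc, the precursor of melanocyte-stimulating hormone, stood at 6.06, 6.69, 5.48 and 5.81 in controls and from 5.24 over 5.57 to 6.10, a difference of -0.33 ± 0.20. Cartpt differed by 0.04 ± 0.14. Nts, the peptide neurotensin, had the smallest p of the list, with 7.29 to 7.51 in controls and 6.65 to 7.46 in tumour-bearing mice, a difference of -0.44 ± 0.13 (limma adjusted p = 0.172). Of 27 serotonin genes 0 were called by limma and 1 was higher at an unadjusted p below 0.05 (4.28% of all genes). The median was 0.00, and 9 members lay below background. Tph2, the neuronal enzyme of serotonin synthesis, and Slc6a4, the serotonin transporter, were among the dim ones, at 3.02 ± 0.13 and 2.99 ± 0.18 (SD, n = 4) in controls and 3.11 ± 0.14 and 3.10 ± 0.19 (SD, n = 7) in tumour-bearing mice. Htr2c, the serotonin receptor of Pomc neurons, was well above background and differed by -0.09 ± 0.11. Kynu, kynureninase of the tryptophan breakdown path, differed by 0.33 ± 0.14 at a level below background. Of 18 dopamine and noradrenaline genes 0 were called by limma, and 1 was lower at an unadjusted p below 0.05 (6.18% of all genes). Counts this close to the shares of all genes are not read as changes.

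The 4 falls were Nr4a3, Fcrls, Lman2l and Agpat5. Nr4a3, an orphan nuclear receptor and immediate early gene that neuronal activity induces, stood at 6.21, 6.21, 6.07 and 6.15 in controls and from 5.26 over 5.32 to 5.87 in tumour-bearing mice, with replicate 6 the highest. The groups did not overlap, and Nr4a3 fell by 0.73 on the log2 scale (SE 0.10, limma adjusted p = 0.00256), a call kept in all 22 fits that left out 1 array. It was also the 1 gene called between tumour day 14 and tumour day 10 (0.00531% of genes), at -0.67. Against the same controls its difference was -0.06 on day 10 and -0.35 on day 17. The contrast of tumour day 14 with tumour day 17 had 0 calls in limma (0% of genes) and 785 genes at an unadjusted p below 0.05.

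Of 45 immediate early and neuronal activity genes, Nr4a3 alone was called, where 0.0213% of all genes fell. At an unadjusted p below 0.05, 1 was higher and 7 lower, where 4.28% and 6.18% of all genes were (median difference -0.08). Of the members 32 had a lower mean. The median was -0.13 without control replicate 4, -0.05 with the thalamus marker covariate and -0.01, with 25 lower, without the 4 arrays highest in thalamus markers, and the part of thalamus tissue in these values was not tested. Jun, a subunit of the AP-1 transcription factor, was 8.23 to 8.41 in controls and 7.92 to 8.18 in tumour-bearing mice, a difference of -0.28 ± 0.06 with no overlap (limma adjusted p = 0.0578). Egr1 differed by -0.65 ± 0.14, Nr4a1 by -0.63 ± 0.16 and Fos by -0.63 ± 0.19, none of them called, and tumour replicate 2 lay within the control range in each, for example 5.75 in Fos against 5.18 to 5.86. The count was 3 without tumour replicate 2, 5 without tumour replicate 6, 3 without control replicate 4 and 2 without tumour day 10 replicate 4. It was 0 without the 4 arrays highest in thalamus markers. Ier3 had a difference on the other side, 0.50 ± 0.11. The 250 bases before the start of Nr4a3 are shown because they held 4 matches to TGACG, the short form of the cyclic AMP response element, on either strand (in capitals). The full element TGACGTCA contains the short form.
Nr4a3 (chr4:48045055-48045304, plus strand): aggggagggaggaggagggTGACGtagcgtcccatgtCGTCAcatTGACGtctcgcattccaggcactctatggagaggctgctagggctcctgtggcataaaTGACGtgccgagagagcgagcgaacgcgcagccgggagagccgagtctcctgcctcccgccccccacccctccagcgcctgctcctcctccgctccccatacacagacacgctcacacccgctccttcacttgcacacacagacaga
The short form was in 64.7% of the 34 list members with a promoter in the table and in 23% of all genes with one. The full element was in 14.7% of the list and 2.03% of all genes, and not in this window of Nr4a3.

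Fcrls, a receptor-like gene of microglia, stood at 6.58, 6.12, 6.39 and 6.17 in controls and from 5.79 over 5.85 to 6.14 in tumour-bearing mice, and fell by 0.43 (SE 0.09, limma adjusted p = 0.0381). Tumour replicate 6 overlapped the controls. The other 17 measured microglia markers were not called, and 9 of the 18 had a higher mean. Lman2l, a lectin of the early secretory path, fell by 0.37 (SE 0.07), from 8.07 to 8.15 in controls to 7.55 to 7.91. Agpat5, an acyltransferase of phosphatidic acid synthesis, fell by 0.26 (SE 0.05), from 7.57 to 7.74 in controls to 7.33 to 7.42. Both separated the groups without overlap.

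Cholesterol synthesis genes had a lower mean in all 20 measured members, with a median difference of -0.20. None was called by limma. At an unadjusted p below 0.05, 0 were higher and 15 lower, where 4.28% and 6.18% of all genes were. Cyp51, which demethylates lanosterol, stood at 7.82, 7.92, 7.87 and 7.81 in controls and from 7.43 over 7.59 to 7.75 in tumour-bearing mice. No values overlapped, with a difference of -0.26 ± 0.06 (limma adjusted p = 0.0929). Nsdhl, a later sterol dehydrogenase, differed by -0.34 ± 0.09, Idi1, an isomerase early in the path, by -0.33 ± 0.09, and Srebf2, the transcription factor of the path, by -0.15 ± 0.05. The count was 1, all lower, without tumour replicate 1, without tumour replicate 6 or without tumour day 10 replicate 2. Oligodendrocyte markers, of cells that make much sterol for myelin, had a lower mean in 8 of 10 genes (median -0.14), with list means of 8.62 to 9.02 in controls and 8.56 to 8.92 in tumour-bearing mice. Their part in the sterol values was not tested. The sterol regulatory element, searched as TCACCCCAC on both strands, was in 1 of 16 list members, Hmgcs1, and in 0.614% of all genes. Hmgcs1, the synthase of hydroxymethylglutaryl-CoA, differed by -0.17 ± 0.06, and its stretch is shown with the match in capitals.
Hmgcs1 (chr13:119690202-119690234, plus strand): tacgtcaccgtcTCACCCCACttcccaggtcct

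Among 52 fatty acid and lipid genes Plin4 rose and Agpat5 fell, where 0.197% of all genes rose and 0.0213% fell. At an unadjusted p below 0.05, 4 were higher and 16 lower, where 4.28% and 6.18% of all genes were (median difference -0.03). Ch25h, which hydroxylates cholesterol, was 3.41 to 3.74 in controls and 3.75 to 4.60 in tumour-bearing mice, a difference of 0.75 ± 0.18, with every control and the lowest tumour-bearing mouse under the background measure of 3.87, so that the size is not measured on the control side. Abca1, a sterol exporter above background, differed by 0.25 ± 0.07. Neither was called, and neither overlapped. Fabp7, a lipid carrier of radial glia and astrocytes, differed by -0.46 ± 0.12, and the enzymes Scd1, Fads1 and Acly by -0.20 ± 0.06, -0.18 ± 0.05 and -0.18 ± 0.06. The count of 2 was 0 without control replicate 1, 2 or 3 and without tumour replicate 1, 2, 5 or 7, 1 without tumour replicate 3 or tumour day 17 replicate 2, and 7 without tumour replicate 6.

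Heat shock and chaperone genes had a lower mean in 28 of 31 measured members, with a median difference of -0.11. None passed in limma. At an unadjusted p below 0.05, 0 were higher and 12 lower, where 4.28% and 6.18% of all genes were. Hsph1, a nucleotide exchange factor of Hsp70, stood at 9.91, 9.84, 9.84 and 9.73 in controls and from 9.15 over 9.41 to 9.72 in tumour-bearing mice, a difference of -0.43 ± 0.11 with no overlap (limma adjusted p = 0.104). Dnajb1, an Hsp40 co-chaperone, differed by -0.40 ± 0.09, with tumour replicate 6 at 7.68 among controls of 7.60 to 7.76. Hspe1, the mitochondrial co-chaperonin, was 8.81 to 8.92 in controls and 8.56 to 8.75 in tumour-bearing mice, a difference of -0.20 ± 0.05. Stip1, which links Hsp70 with Hsp90, differed by -0.26 ± 0.07, and the abundant Hspa8 by -0.11 ± 0.08. The count was 3, all lower, without tumour replicate 6 and 1 without tumour day 17 replicate 6. The heat shock element, searched as the inverted pair GAANNTTC, which reads the same on both strands, was in 12 of 28 list members with a promoter in the table (42.9%) and in 9.04% of all genes with one. The stretches of Hspe1, Fkbp4 and Dnaja4 are shown with the matches in capitals, since these genes stand for a mitochondrial chaperonin, an Hsp90 co-chaperone and an Hsp40 protein.
Hspe1 (chr1:55088052-55088083, plus strand): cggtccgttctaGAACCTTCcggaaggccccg
Fkbp4 (chr6:128438788-128438819, minus strand): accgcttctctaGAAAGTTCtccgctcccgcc
Dnaja4 (chr9:54699457-54699526, plus strand): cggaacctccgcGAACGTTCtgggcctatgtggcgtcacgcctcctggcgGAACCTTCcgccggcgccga
Fkbp4 differed by -0.28 ± 0.08, Dnaja4 by -0.27 ± 0.09, and Hspd1, the chaperonin that works with Hspe1, by -0.16 ± 0.07.

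**Figure D4:**
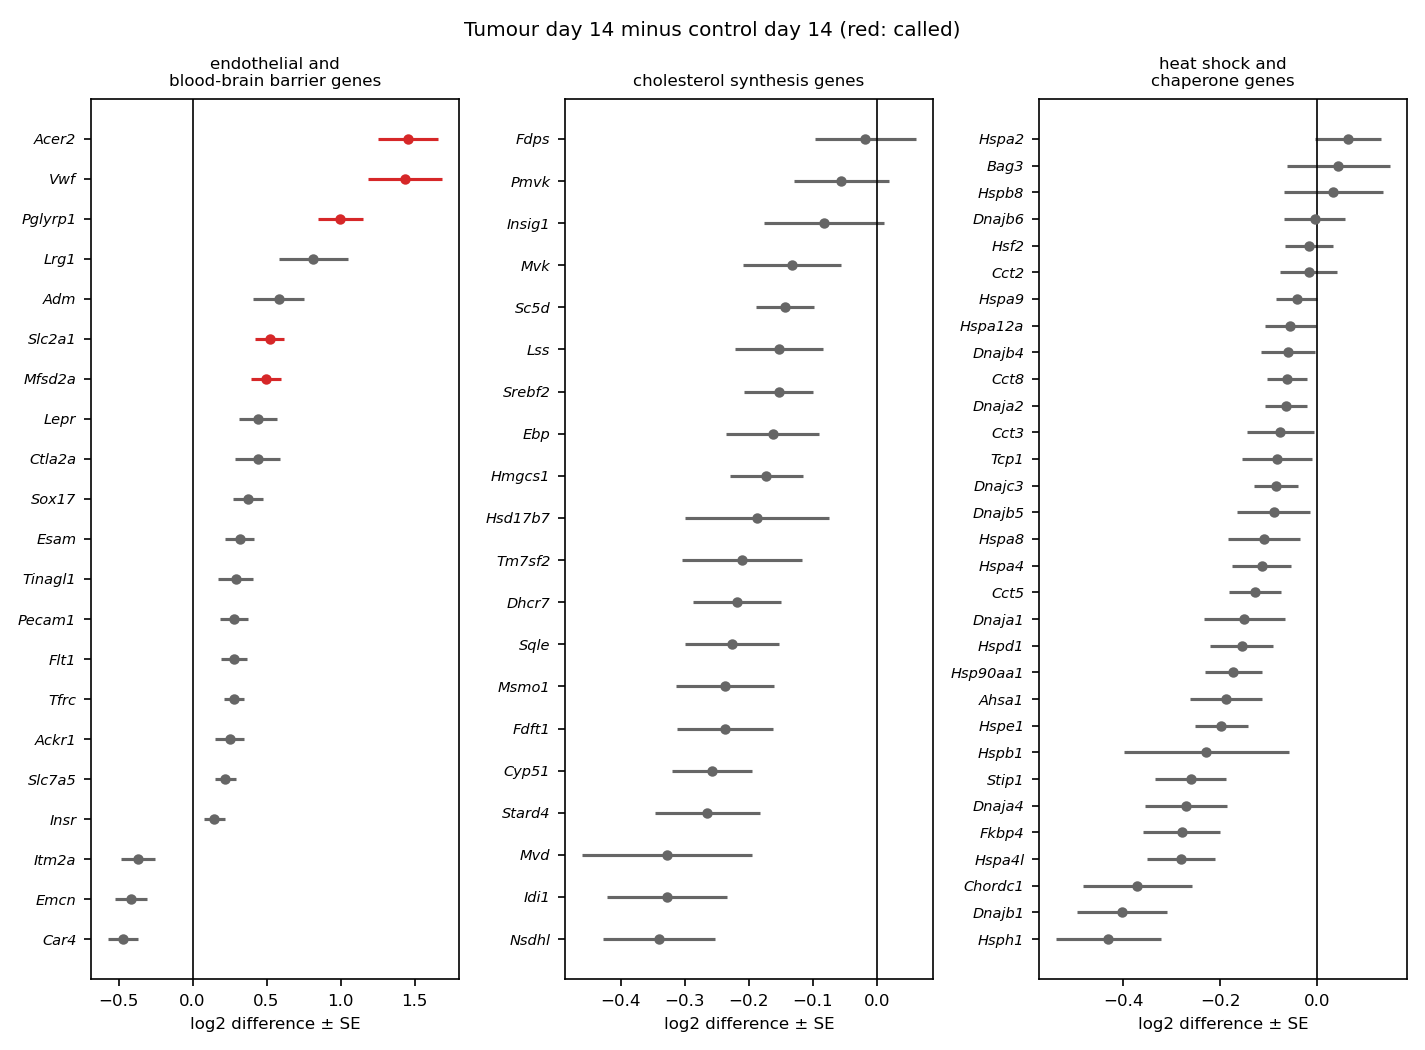
Log2 difference ± SE, tumour day 14 minus control day 14 (x axis), of single genes (y axis): endothelial and blood-brain barrier genes at an unadjusted p below 0.05 (left), and all measured cholesterol synthesis (middle) and heat shock genes (right). Red marks the 5 called genes, all endothelial, and all 20 cholesterol synthesis genes lie left of 0.

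In 3 further lists most members had a mean on 1 side, by small amounts and without a call. Oxidative phosphorylation subunits had a lower mean in 61 of 71 genes (median -0.06), with 0 higher and 11 lower at an unadjusted p below 0.05. They were led by the complex I subunit Ndufs8 at -0.17 ± 0.05 with no overlap. Over all genes 4.28% were higher and 6.18% lower at that p. Cytosolic ribosomal proteins had a higher mean in 55 of 66 genes (median 0.04), with 5 higher and 0 lower at that p (4.28% of all genes were higher so), such as Rps20, a small-subunit protein, at 0.14 ± 0.04. Their median was 0.07 without control replicate 4 and 0.02, with 44 higher, without the 4 arrays highest in thalamus markers. GABA and glutamate genes had a lower mean in 33 of 45 (median -0.07), with 0 higher and 8 lower, among them Grin2b, an NMDA receptor subunit, at -0.21 ± 0.07. All 9 pan-neuronal markers had a lower mean (median -0.08). The part of neuron content in these lists was not tested.

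The remaining called genes belonged to no list above. Phyhd1, a dioxygenase relative, rose by 0.69 ± 0.10 from 7.66, 7.70, 7.76 and 8.21 to between 8.20 and 8.74. Apoc1, an apolipoprotein, rose by 0.65 ± 0.12, Znfx1, a helicase-domain sensor of viral RNA, by 0.55 ± 0.09 (0.23 and not called as the mean of its probe sets), Paqr5, a membrane progestin receptor, by 0.55 ± 0.10, and Pnpla7, a lysophospholipase, by 0.52 ± 0.10. Ankrd63, Hyi, Cdkl3 and Rerg rose by 0.40 ± 0.08, 0.39 ± 0.08, 0.34 ± 0.07 and 0.23 ± 0.05. Further genes had an unadjusted p below 0.001 and groups that stood apart without being called. Among them were Wfdc1 (0.56 ± 0.12), the inhibitory antibody receptor Fcgr2b (0.56 ± 0.13) and Txnip, which binds thioredoxin (0.57 ± 0.14). On the lower side were Ddit4l (-0.50 ± 0.11), the BMP antagonist Nog (-0.36 ± 0.08) and the matrix proteoglycan Ncan (-0.36 ± 0.08). In all, 52 genes had an unadjusted p below 0.001, no overlap and no call.

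The tumour-bearing groups of days 10 and 17 share these 4 controls with day 14 and lack controls of their own day, so their differences are given only side by side. Lcn2 differed by 2.21, 2.27 and 1.81 on days 10, 14 and 17, Il1r1 by 0.91, 0.91 and 0.78, and Zbtb16 by 1.04, 1.18 and 0.84. Alas2 differed by 1.04, 2.03 and 2.42, Slc4a1 by 1.01, 1.69 and 2.10, and Rbm3 by 0.47, 0.77 and 1.10. Ghsr differed by 0.33, 0.48 and 0.49, Ghrh by 0.34, 0.69 and 0.70, and Oasl2 by 0.86, 0.61 and 0.73. None of these genes was called between tumour days 14 and 10 or between days 14 and 17.

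**Figure D5:**
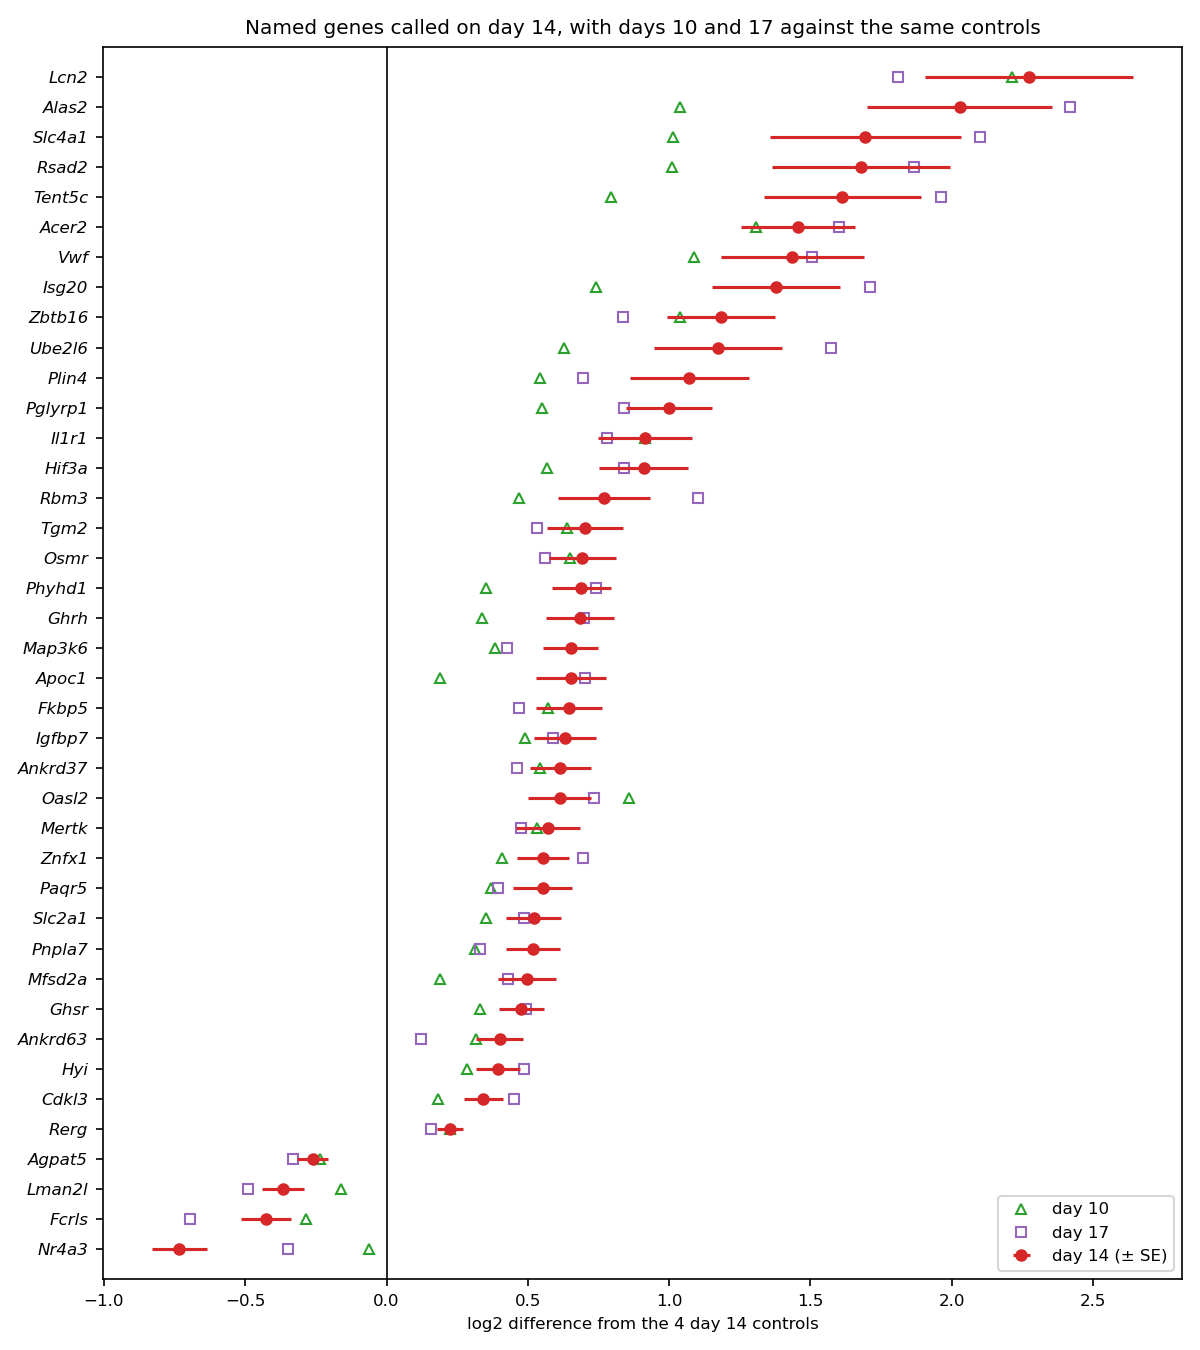
Log2 difference from the 4 day 14 controls (x axis) of the 40 named genes called on day 14 (y axis), on day 14 with its SE (filled circles) and on days 10 (triangles) and 17 (squares). The 3 groups share the controls; Nr4a3 lies at -0.06, -0.73 and -0.35 on days 10, 14 and 17.

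The accession order held an early run of 9 arrays and a later run of 13, which the labels do not call batches. Control replicate 1 and tumour replicates 1 to 3 fell in the early run, and the other mice of this comparison in the later one. The differences within the early and the later run were 2.74 and 1.99 for Lcn2, 2.47 and 1.82 for Alas2, 1.40 and 1.08 for Zbtb16, 1.64 and 1.28 for Acer2, 0.63 and 0.40 for Ghsr, 0.99 and 0.58 for Ghrh, and -0.82 and -0.69 for Nr4a3. The early run has 1 control, so its spread there rests on the tumour-bearing mice. With a term for the run, 49 genes were called.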

How the data were processed

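Hypothalamic RNA of 22 mice was hybridised to arrays with 1 array per mouse. The deposited log2 values were made by the authors with RMA, per the submitters' processing notes; its version, the genome build and the annotation are not given in the sources used here. RMA normalizes between arrays, so a shift of all genes in 1 group would be removed. Of 35556 probe sets, 21218 named 1 gene, 1881 several and 12457 none here, and the rule of the highest mean left 18820 genes, unfiltered. Background was taken as 3.87, the 95th percentile over 1182 probe sets of odorant and pheromone receptors. The number of arrays limits the precision.

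The model had a mean for each of the 4 groups of the 22 arrays (limma 3.58.1, R 4.3.3, eBayes without trend, 18 residual degrees of freedom) and was tested on simulated data. Tests were two-sided. The members and lists were chosen with earlier results of these data known. The text names every called gene except receptors of the olfactory family and predicted genes, up to 4 called members of each list (where there were none, the 2 of smallest p), and fixed feeding and serotonin genes. It also names some of the largest uncalled differences with no overlap and an unadjusted p below 0.001, and further list members as values. Lists overlap in members. Alternatives changed the moderation, weights, scaling, background filter, probe set rule, samples, threshold, covariates and run. The meningeal covariate, the list counts under each alternative, the fit of all probe sets, the replicate block with all groups fitted and the motifs as printed were added after seeing the data. Longer forms of 3 motifs and 2 motifs not shown were searched first, and replaced or dropped with their matches known; a search of the clock E box is not shown. Promoters are RefSeq windows on GRCm38.p6.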

Additional observations from a re-analysis of the deposited data

Results flagged for a closer look

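The highest or lowest mouse of a group stood apart from the rest in 17 of 182 groups of values tested. The measure was the gap to its nearest neighbour over the group's range (Dixon's 95% critical value). Chance gives about 1 in 20 for independent groups of values. These groups share the same mice and in part hold genes called from them, so that rate does not apply. In 5 of the 17 the mouse was tumour replicate 6, on the control side of the other 6 tumour-bearing mice: Acer2 at 7.01, Ankrd37 at 5.51, Pglyrp1 at 6.07, Slc2a1 at 10.11 and, as the highest, Fcrls at 6.14. In 6 it was control replicate 4: the highest control in Alas2 (6.41), Plin4 (5.39) and Znfx1 (8.89) and in the mean of the heme and red cell list (5.89), and the lowest in the means of the cholesterol synthesis list (7.78) and of the endothelial markers (6.67).

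The other 6 were single cases. Hcrt was lowest in tumour replicate 3 (9.33), Rerg was lowest in tumour replicate 7 (8.19), and Tgm2 was lowest in control replicate 2 (5.46). Marker means were highest in tumour replicate 5 for choroid plexus (4.72), in tumour replicate 1 for oligodendrocyte precursors (7.78) and in tumour replicate 2 for thalamus (7.10).

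Nr4a3 differed between tumour days 14 and 10, by -0.67 (limma, called). Outside the gene table, 8 probe sets that name several genes or none were called higher and 2 lower in a fit of all probe sets, in which 25 probe sets that name 1 gene were called higher and 1 lower. Of these, 4 were bright, each naming several genes, with controls from 9.71 to 11.61 and tumour-bearing mice from 11.42 to 12.15.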

How the results depend on the processing

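The count of genes called on day 14 was 41. It moved to 93 with a variance trend (68.8% higher, against 90.2%), 120 with array weights (60.8% higher), 68 above background (75% higher) and 96 at adjusted p below 0.1 (70.8% higher). It was 13 with the thalamus marker covariate (76.9% higher), 0 without the 4 arrays highest in thalamus markers, 1 in the first 9 accessions alone, 0 in the last 13 and 0 with only the groups compared. A replicate block gave 0 when only the groups compared were fitted, as that fit did without the block, and 140 (57.1% higher) with all groups fitted; unadjusted p lay below 0.05 in 2028 and 3064 genes. With its group's mean subtracted from every gene, each control was correlated with tumour replicates 1 to 4. Same-numbered mice then correlated at 0.128, -0.0479, -0.149 and 0.047, and 0 of 4 controls correlated best with its own number. These 4 values are too few to decide whether the numbers pair the mice. A second quantile normalization gave 52 (90.4% higher), median centring 42 (92.9% higher), and a run term 49 (75.5% higher). Leaving out 1 array gave 2 to 115. The called genes kept their sign in each alternative, 40 of the 41 being measured in the fit of genes above background. They were chosen from the same arrays, so their kept sign is no separate support.

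The 1 gene between days 14 and 10 became 0 in either run alone, and with only the groups compared, with the replicate block or without it, and 1 to 1 when leaving out 1 array. Between days 14 and 17 leaving out 1 array gave 0 to 1, the 1 without tumour day 14 replicate 6 or tumour day 17 replicate 2. The cause of these shifts was not tested.

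Among the 118 genes named or followed under each alternative, signs turned for 6, none of them called. Cartpt became -0.0242 in the last 13 accessions, -0.0926 with the thalamus covariate and -0.159 without the 4 thalamus-high arrays, and ran from -0.0413 to 0.192 when leaving out 1 array, below 0 without control replicate 1 or 3 or tumour replicate 6. Fshb became 0.0623 without those 4 arrays, Htr2c 0.0246 with the covariate, Ido1 -0.125 and Slc6a4 -0.0416 in the first 9 accessions, and Tph2 -0.0572 in the last 13 and -0.00125 without those 4 arrays. Of the 40 named called genes, 2 stayed called in all 22 fits that left out 1 array. By over 1.5 times the difference moved in 6: Acer2 and Znfx1 (0.738 and 0.235 as the mean of probe sets), Mfsd2a, Paqr5 and Fcrls (0.317, 0.354 and -0.251 without the 4 thalamus-high arrays), and Hyi and, again, Paqr5 and Fcrls (0.672, 0.863 and -0.710 in the first 9 accessions). The 4 controls and 7 tumour-bearing mice limit the precision.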
